A study of Mus musculus with 3 samples.

Results

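Of the 11140 promoters in the table, 245 (2.20%) carried high H3K4me3 counts in all 3 germ cell libraries. They were chosen by their raw counts, with at least 83 in leptotene/zygotene spermatocytes (LZ), at least 136 in pachytene/diplotene spermatocytes (PD) and at least 4389 in elongating spermatids (ES). All 3 libraries took part in the choice, so the levels of these promoters are a description and not a test. H3K4me3 was measured by chromatin immunoprecipitation and sequencing in male germ cells of adult C57BL/6J mice, with testes dissociated by collagenase and trypsin, chromatin cut by micrococcal nuclease and the same antibody throughout. No genotype or treatment separates the libraries. Each stage had 1 library, so no difference between stages has a replicate check, a test or a p-value. How the stages were separated and how many animals gave cells were not given in the sources used here.

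H3K4me3, trimethylation of lysine on the tail of histone H3, is laid down by SET-domain methyltransferases and marks nucleosomes around the start sites of active or poised genes, most strongly at promoters rich in CpG. In leptotene and zygotene, when chromosomes condense and pair, the meiotic enzyme PRDM9 also places the mark at recombination hotspots away from promoters. Pachytene and diplotene spermatocytes transcribe many genes of later sperm development. In elongating spermatids most histones are exchanged for protamines, and the nucleosomes that stay are known to be found often at CpG-rich promoters.

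The table names each promoter only by the number of an assembled locus, from 1 to 27289. Of these identifiers 0 were found among the names in a RefSeq table of mouse genes (GRCm38.p6), so the genes, coordinates and sequences of these promoters, and markers of the labelled cell types, are not analysed here. The counts of LZ, PD and ES totalled 1654906, 4826890 and 17989325, as sums over these rows alone, so the depth of the libraries is unknown. Levels are given in CPM, the counts of a promoter per 1000000 counts of its library's total, so a change common to all promoters cannot be seen. Intervals are exact 95% intervals, Poisson for a level and Clopper-Pearson for a share or a ratio of counts. They cover counting error only. Those of a percentage of promoters take promoters to be independent of each other. Those of a share of a library's counts take single counts to be independent.

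The thresholds were not equally strict. The LZ threshold of 83 counts equals 50.2 CPM and was reached by 44.6% of all promoters, and the PD threshold of 136 counts equals 28.2 CPM and was reached by 41.3%. The ES threshold of 4389 counts equals 244 CPM and was reached by 10%. The set is therefore the top 10% of ES restricted to promoters of the high group in LZ and PD, and "strongly marked" holds for every one of its promoters only in ES. Of the 245 promoters, 85 lay in the top 10% of LZ, 94 in the top 10% of PD and 54 in the top 10% of both, while 120 lay in the top 10% of neither.

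Few promoters sat at the edge of the rule in LZ and PD, and more in ES. In LZ the lowest promoter inside had 83 counts, and the highest outside that met both other thresholds had 72. In PD these were 138 and 132 counts, and in ES 4389 and 4373. Within 10% above the threshold there were 4 promoters for LZ, 3 for PD and 40 for ES. Counting error put 29 of the 245 in doubt, as their interval reached below a threshold in at least 1 library, while 216 lay clear of all 3.

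In LZ the 245 promoters ranged from 83 to 3578 counts, with a median of 351 counts or 212 CPM and quartiles of 139 and 302 CPM. In PD they ranged from 138 to 4549 counts, with a median of 1304 counts or 270 CPM and quartiles of 114 and 395 CPM. In ES they ranged from 4389 to 185534 counts, with a median of 6014 counts or 334 CPM and quartiles of 287 and 398 CPM. The spread was widest in PD, where the upper quartile was 3.48 times the lower, against 2.17 times in LZ and 1.39 times in ES. The narrow ES range follows in part from the high threshold, which leaves only the upper tail of that library. Over all promoters this quotient was also largest in PD and smallest in ES, at 17.1, 43.8 and 4.37 times in LZ, PD and ES. Among the 3511 promoters high in LZ and PD but below the ES threshold it was 2.14, 3.59 and 2.16 times. Over all promoters the median levels of LZ, PD and ES were 33.8, 12.02 and 48.5 CPM.

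**Figure D1:**
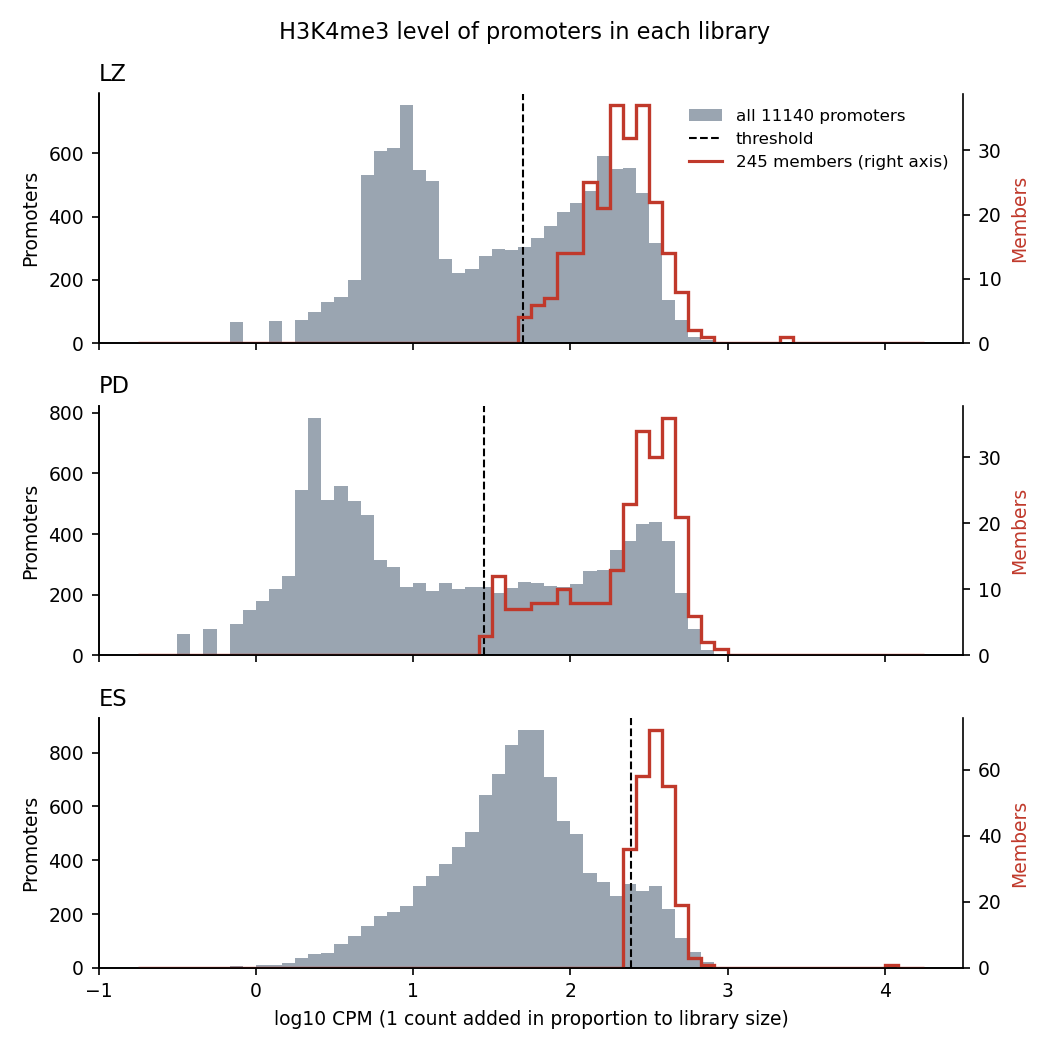
Histograms of promoter H3K4me3 levels in each library, in log10 CPM on the horizontal axis and number of promoters on the vertical axes. Grey bars are all 11140 promoters (left axis), red outlines the 245 chosen promoters (right axis) and dashed lines the thresholds, which lie between the low and high groups in LZ and PD and at the upper tail in ES.

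These promoters made up 2.20% of the rows but took 5.79% of the counts in LZ (interval 5.75 to 5.83), 6.64% in PD (6.61 to 6.66) and 9.59% in ES (9.58 to 9.61). One locus, MSTRG.24815, took 1.03% of all ES counts by itself. It had the most counts of all promoters in each library, at 3578, 4549 and 185534 for LZ, PD and ES. The next highest promoters of these libraries had 1992, 4515 and 16289 counts, so MSTRG.24815 had 1.80 times, 1.01 times and 11.4 times as many. In PD its lead was within counting error, as its interval of 915 to 970 CPM held the 935 CPM of the next. Whether reads that map to several places add to its counts was not tested, as its position and the handling of such reads were not given in the sources used here. Without it the other promoters of the set took 5.59%, 6.55% and 8.65% of the counts of LZ, PD and ES. The promoter with the next most ES counts in the set was MSTRG.24818, which lies 3 locus numbers away and was picked out after its values were seen. Its counts in LZ, PD and ES were 377, 397 and 13291, and its levels were 228 CPM (205 to 252), 82.2 CPM (74.4 to 90.8) and 739 CPM (726 to 751). MSTRG.24815 had 9.49 times its count in LZ, 11.5 times in PD and 13.96 times in ES.

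The stages were compared within each promoter. The level in the highest library exceeded that in the lowest by a median of 2.18-fold (range 1.01 to 19.6), and 106 promoters (43.3%) stayed within 2-fold over all 3 libraries. Among the 3511 promoters high in LZ and PD but below the ES threshold, 270 (7.69%) did so and the median was 4.65-fold. The ES threshold leaves out promoters that are low in ES, so nothing is read from this difference. The share of all promoters within 2-fold was not computed, so 43.3% is not read as a trait of the set. The evenness of the set depends on how libraries are scaled to each other. With TMM factors 51 of its promoters stayed within 2-fold, and with median-of-ratios size factors 35 did. The next promoter after MSTRG.24815 when ordered by the lowest of the 3 ranks, MSTRG.4946, counted 762, 2228 and 8224 in LZ, PD and ES. Its levels were 460 CPM (428 to 494), 462 CPM (443 to 481) and 457 CPM (447 to 467), so they did not differ beyond counting error with library totals. With median-of-ratios size factors its log2 ratio was 1.19 for PD to LZ and -1.33 for ES to PD. It ranked 117 of all promoters in LZ, 323 in PD and 202 in ES. MSTRG.4946 was picked out after its values were seen.

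Stages were called apart at a promoter when their levels differed by 2-fold or more, after adding 1 count scaled to the library's size, and when the higher library had 20 counts or more. All 245 passed that minimum because the rule demands more. With this rule 194 promoters (79.2%) had no stage at least 2-fold above both others, against 42.0% of the 11132 promoters with enough counts. ES stood above both others at 48 promoters (19.6%, against 36.1%), LZ at 2 (against 13.1%) and PD at 1 (against 8.82%). Since the rule used all 3 libraries, nothing is read from these shares. The 48 promoters highest in ES had median levels in LZ, PD and ES of 107, 60.2 and 359 CPM. The 194 without such a stage had medians of 232, 302 and 331 CPM, in the same order. With TMM factors 175 promoters of the set had no such stage and 23 were highest in PD. With median-of-ratios size factors these were 109 and 111. Shares over all promoters were not computed under either scaling, so nothing is read from these counts.

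From early to late meiotic prophase, PD exceeded LZ by 2-fold or more at 42 of the 245 promoters (17.1%) and LZ exceeded PD at 49 (20%), while 154 were neither. Over the 8286 promoters with enough counts, 16.1% were higher and 40.9% lower. Over the 245 promoters, the log2 ratio of PD to LZ had a median of 0.25, with quartiles of -0.66 and 0.75. Over all with enough counts its median was -0.46. Among the 3511 promoters that were high in LZ and PD but below the ES threshold, which met the same LZ and PD thresholds, 13.2% were higher, 18.7% were lower and the median was 0.11. The balance moved with the scaling: 118 were higher and 21 lower with TMM factors, and 161 and 8 with median-of-ratios size factors. These factors moved the median over all promoters with enough counts from -0.46 to 0.25 and 0.71.

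The promoter ranked first as higher in PD than LZ was MSTRG.16436, which counted 83, 1723 and 8124 in LZ, PD and ES. At 357 CPM (340 to 374), PD was 7.12 times its LZ level of 50.2 CPM (39.9 to 62.2), with an interval of the ratio of 5.71 to 8.98. Its LZ count is exactly the threshold, so 1 count less would have left it out. The promoter ranked first as lower in PD was MSTRG.1573, which counted 1049, 342 and 4628 in LZ, PD and ES. In LZ, where it ranked 27, it had 634 CPM (596 to 673), which was 8.95 times its PD level of 70.9 CPM (interval of the ratio 7.91 to 10.1). Its ES level of 257 CPM (250 to 265) lay between them. With TMM, median-of-ratios or quantile scaling MSTRG.16436 stayed higher in PD, with log2 ratios of 2.89 to 4.01, and MSTRG.1573 stayed lower, at -2.93 to -1.98. Both were picked as extremes, which by itself can inflate their ratios.

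**Figure D2:**
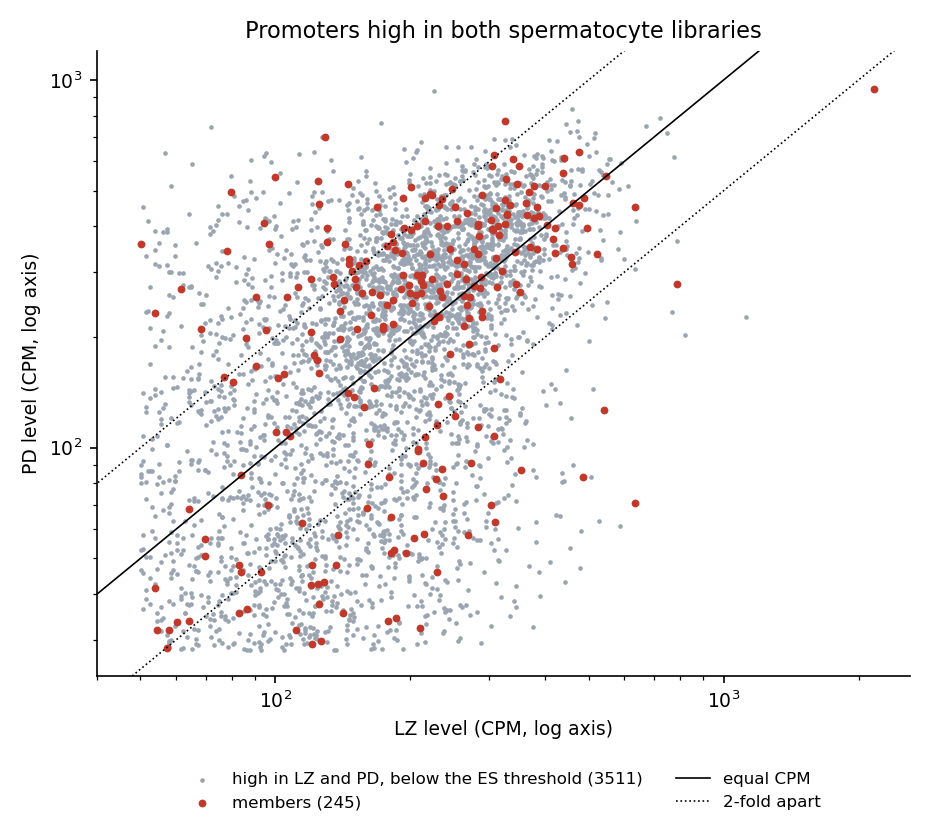
Levels of promoters high in both spermatocyte libraries, LZ on the horizontal and PD on the vertical axis, in CPM on log axes. Red points are the 245 chosen promoters and grey points the 3511 below the ES threshold; the solid line marks equal CPM and dotted lines 2-fold apart, and red points lie over most of the grey cloud, with MSTRG.24815 at the far upper right.

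Between PD and ES, 87 promoters were higher in ES by 2-fold or more (35.5%) and 1 was lower (0.408%), against 52.2% and 29.7% of the 11121 promoters with enough counts. Between LZ and ES, 86 were higher in ES (35.1%) and 3 were lower (1.22%), against 40.2% and 34.5% of 11130. The few lower promoters follow from the ES threshold, since a promoter at 244 CPM or more in ES is lower only if it exceeds 488 CPM in the other library. The median log2 ratio over the 245 promoters was 0.34 for ES to PD and 0.67 for ES to LZ, and over all with enough counts it was 1.26 and 0.19. The ES to PD balance was 63 higher and 27 lower with TMM factors and 93 and 1 with quantile normalization, and it turned with median-of-ratios size factors, to 35 higher and 119 lower. The median log2 ratio over the 245 was -0.11 with TMM factors, 0.60 with quantile normalization and -0.98 with median-of-ratios factors. Over all with enough counts it was 0.82, -0.38 and -0.04 in the same order. The median of the set thus lay below that of all promoters with totals, TMM and median-of-ratios factors, and above it with quantile normalization. The comparisons share libraries, so their values are not independent of each other.

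The promoter ranked first as higher in ES than PD was MSTRG.8130, which counted 90, 154 and 11301 in LZ, PD and ES. At 628 CPM (617 to 640), ES was 19.7 times its PD level of 31.9 CPM (27.1 to 37.4), with an interval of the ratio of 16.8 to 23.2. MSTRG.8130 lay close to the thresholds in LZ and PD and ranked 41 in ES. The 1 promoter lower in ES than in PD was MSTRG.9147, which counted 509, 3024 and 4445 in LZ, PD and ES. At 626 CPM (604 to 649), PD was 2.54 times its ES level of 247 CPM (240 to 255), with an interval of the ratio of 2.42 to 2.66. It was 1 of the strongest in PD, at rank 44, and among the weakest of the set in ES. With TMM, median-of-ratios or quantile scaling MSTRG.8130 stayed higher in ES, with log2 ratios of 2.98 to 3.85, and MSTRG.9147 stayed lower, at -2.66 to -1.12.

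Whether the level in spermatocytes went with the level in spermatids was described among the 3756 promoters high in LZ and PD, of which the 245 are the 6.52% past the ES threshold. These had a median LZ count of 351 against 303 for the 3511 others (1.16 times), and a median PD count of 1304 against 997 (1.31 times). The distributions overlapped widely, as 59.8% of the others lay below the set's median in LZ and 62.8% in PD. Ordered by LZ count, the lowest quintile of the 3756 had 4.92% of its promoters past the ES threshold (interval 3.49 to 6.72) and the highest quintile had 8.92% (6.98 to 11.2). Ordered by PD count, the share was 5.72%, 4.53% and 4.79% in the lowest 3 quintiles, 7.99% in the fourth and 9.59% in the highest (7.58 to 11.9). The median ES count of the quintiles ran from 850.5 to 1403 along LZ and from 863 to 1439 along PD, with its lowest value of 808 in the second PD quintile. These shares come from ranks within a library and do not depend on scaling. The choice of the set used the same counts, each stage is 1 library and promoters are no independent replicates. The differences between quintiles are therefore a description and were not tested. Ordered by the ratio of PD to LZ, the share past the ES threshold was 6.78% in the lowest quintile (5.09 to 8.82), 4.66% in the second (3.27 to 6.42), 5.99% in the third, 7.32% in the fourth and 7.86% in the highest (6.03 to 10.02).

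Within the set, ES counts were compared with spermatocyte counts by rank. Over the 245 promoters the Spearman rho was 0.05 between ES and PD, 0.03 between ES and LZ, and 0.49 between LZ and PD. Over the 3511 others high in LZ and PD it was 0.33, 0.26 and 0.49. The set spans a narrow range in ES, which bears on both coefficients with ES, and promoters are no independent replicates, so the coefficients describe 1 library each way. On log2 CPM, Pearson's r between ES and LZ was 0.16 with MSTRG.24815 and -0.04 without it.

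Along the ES library as a whole, marking in both spermatocyte libraries was commonest in the upper middle and not at the top. When all promoters were divided into deciles by ES count, the share high in LZ and PD was 1.71% in the lowest decile (interval 1.03 to 2.65) and 57.8% in the seventh (54.8 to 60.7), which held 1109 to 1465 counts. It was 52.0% in the sixth (49.0 to 54.9), whose interval overlaps that of the seventh. It was 50.3% in the eighth, 31.5% in the ninth (28.8 to 34.3) and 22.0% in the highest (19.6 to 24.5), where the high promoters are the 245. The median LZ count had a similar course, at 17 in the lowest decile, 217 in the seventh and 35 in the highest, and the median PD count was 14.5, 636 and 25. The seventh decile remained the highest when the LZ and PD thresholds were moved by 0.5 on the log2 scale either way, and when LZ or PD was used alone. Leaving out MSTRG.24815 and MSTRG.24818, which lie in the highest decile, could change only that decile and gave 21.9% there. These alternatives were chosen after the data were seen and reuse the same 3 libraries, so they are no independent support. The profile is a description and was not tested.

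**Figure D3:**
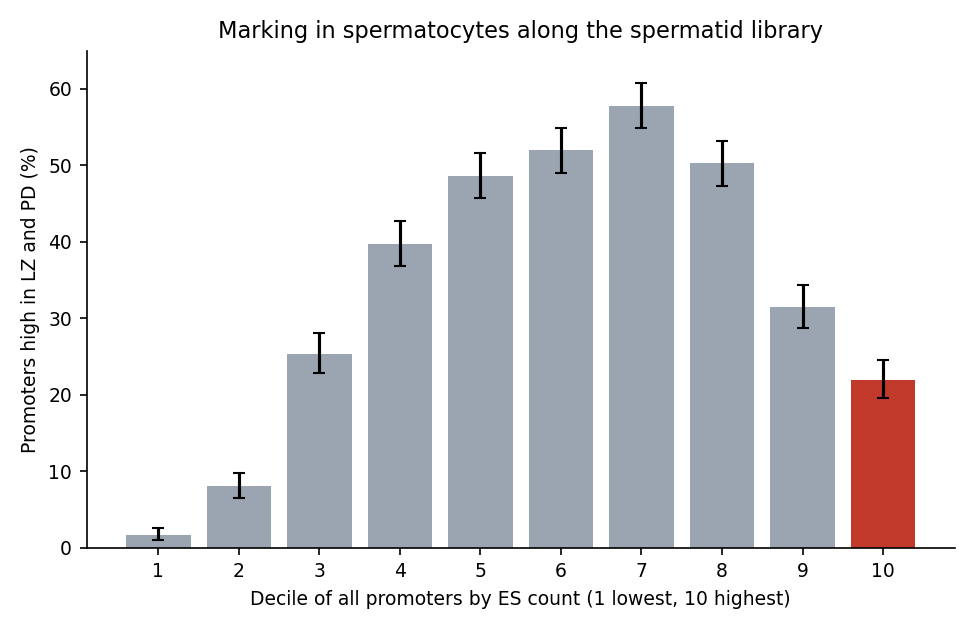
Share of promoters high in LZ and PD (vertical axis, percent) for each decile of all promoters by ES count (horizontal axis), with exact 95% Clopper-Pearson intervals as bars. The share rises to 57.8% in the seventh decile and is 22.0% in the highest (red), whose high promoters are the chosen set.

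Within the top 10% of ES, the 1114 promoters past the threshold, the share of the 245 was lowest at the very top. Divided into quintiles by ES count, they made up 25.1%, 23.3%, 22.5% and 24.2% of the first 4 quintiles and 14.8% of the highest (interval 10.4 to 20.1), which held 33 of them. That interval overlaps those of the other quintiles, and the difference was not tested. Promoters past the ES threshold that were high in LZ only took 7.17% of the lowest quintile (4.16 to 11.4) and 29.6% of the highest (23.7 to 36.1). The median ES count was 6014 for the 245, 7119.5 for the 158 high in LZ only, 5908.5 for the 28 high in PD only and 6186 for the 683 low in both. In LZ the 245 had a median of 351 counts, against 131.5 for those high in LZ only. In PD they had a median of 1304 counts, against 286 for those high in PD only.

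**Figure D4:**
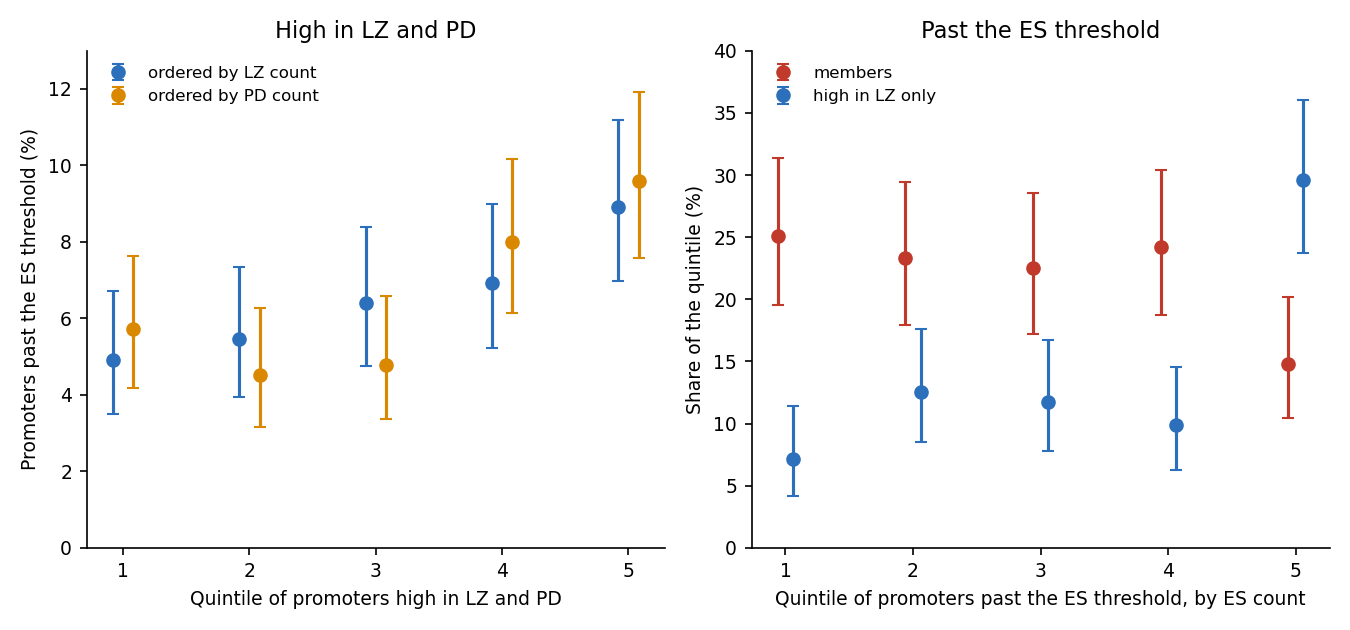
Left, share of the 3756 promoters high in LZ and PD that were past the ES threshold (vertical axis, percent), by quintile of LZ count (blue) or PD count (orange). Right, share taken by the chosen set (red) and by promoters high in LZ only (blue) in each quintile of the 1114 promoters past the ES threshold; bars are exact 95% Clopper-Pearson intervals, and in the highest quintile the set takes 14.8% and promoters high in LZ only 29.6%.

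At equal rank, promoters shared by LZ and PD were in the ES list about as often as all promoters. Of the 571 promoters in the top 10% of both LZ and PD, 54 (9.46%, interval 7.18 to 12.2) were in the top 10% of ES. These 54 were 4.85% of the ES top 10%. In the top 20% of each library, 1477 promoters were shared by LZ and PD, and 276 of these (18.7%, 16.7 to 20.8) were also in ES, which is 12.4% of the ES list. In the top 5%, 213 were shared by LZ and PD and 13 of these (6.10%, 3.29 to 10.2) were also in ES, which is 2.33% of the ES list. The intervals include 10%, 20% and 5%, the shares of all promoters that these ES lists hold, so the overlaps are not read as a result. The shares of the ES lists are to be set beside 571, 1477 and 213 of all 11140 promoters.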

How the data were processed

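The deposited table holds raw counts per promoter, not normalized, in 1 column per library, matched to the samples by the description label. The submitters' processing notes name Trim Galore, STAR and the build mm10, without versions. The name of the table gives promoters and 2 kb. The counting tool, window placement, duplicate handling and choice of rows were not given in the sources used here, and no input library was analysed here.

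CPM and log2 ratios were computed from the promoter totals in Python 3.11.15 (pandas 2.3.3, scipy 1.17.1). The limit set by a count of 0 was taken as 3 counts, or 1.81, 0.622 and 0.167 CPM for LZ, PD and ES. TMM factors came from edgeR 4.0.16 and size factors from DESeq2 1.42.0. Their tests were not run, since each stage has 1 library. The rule of size was checked on simulated counts with Poisson error alone and library totals as the true scaling. That check cannot speak to variation between replicates or to the choice of scaling. The thresholds and descriptions were chosen with earlier results of these data known. Named promoters were those with the most counts or highest ranks, and the first in each direction, ordered by whichever end of the interval of their ratio was nearer to 1. Any others were picked after their values were seen, as stated beside them.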

Additional observations from a re-analysis of the deposited data

How the results depend on the processing

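No paired analysis was possible because a stage is a single library, so that leaving out a replicate was not an option. Of 75 recomputed values, 45 stayed within 1.5 times the reported count or, for a share, within its interval, and 30 did not. Some of the 45 were fixed in advance, as removing the minimum count could change nothing when all 245 promoters passed it. Adding 5 counts, or leaving 2 promoters out of the totals, could change little, so the tally does not measure robustness. The set held 112 promoters with the ES top 5%, 597 with the ES top 20%, 563 at 100 CPM in every library and 54 with the top 10% of every library, against 222 and 277 with the LZ and PD thresholds moved by 0.5 on the log2 scale. The set took 5.59%, 6.55% and 8.65% of the counts of LZ, PD and ES without the promoter with the most counts, and 5.56%, 6.54% and 8.58% without the 2 with the most ES counts, an alternative chosen after the data were seen. For PD against LZ, TMM factors, median-of-ratios size factors and a 4-fold threshold gave 118, 161 and 9 higher promoters and 21, 8 and 13 lower ones, with 31 under quantile normalization. For ES against PD, 35 were higher by median-of-ratios factors and 46 at 4-fold, while 27 were lower by TMM factors, 119 by median-of-ratios factors and 0 at 4-fold. For ES against LZ, 27 were higher and 0 lower at 4-fold. Promoters of the set with no stage above both others numbered 109 with median-of-ratios factors. Those of the set in the top 5% of every library numbered 13, and in the top 20% 121. Those with another of the set within 5 locus numbers were 28 (11.4%, against 8.29% of the promoters outside the set). Within 10 they were 47 (19.2%, against 15.5%). Stricter or looser thresholds change counts by construction, and scaling factors by setting another ratio as unchanged. LZ, with the smallest total, had the least precise counts at equal level.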

Other observations

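The locus number is the only property in the table that the choice of promoters did not use. Its relation to position is not stated there. Of the 245 promoters, 8 (3.27%) had another of the set at the next locus number, in 4 pairs, and 226 of the 10895 other promoters (2.07%) had 1 of the set there. The pairs were MSTRG.4674 with MSTRG.4675, MSTRG.19205 with MSTRG.19206, MSTRG.21036 with MSTRG.21037, and MSTRG.22793 with MSTRG.22794, named after their values were seen. The PD counts within a pair were farthest apart at MSTRG.4674 and MSTRG.4675, at 163 and 1886, and closest at MSTRG.19205 and MSTRG.19206, at 1909 and 1526. In the other pairs they were 1954 and 1037, and 1566 and 2479. Within 10 locus numbers the shares were 19.2% of the set and 15.5% of the others.

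Promoters beside the set were compared with all others outside it. The 226 promoters outside the set and next to it had median counts in LZ, PD and ES of 78, 88 and 862.5, and all 10895 outside the set had 52, 52 and 847. The 3087 promoters outside the set and next to a promoter high in LZ and PD but below the ES threshold had 102, 109 and 873, and 40.3% of them were high in LZ and PD (38.5 to 42.0) and 6.35% past the ES threshold (5.51 to 7.27). Of the 226, 35.8% were high in LZ and PD (interval 29.6 to 42.5), against 32.2% of all outside the set, and 10.6% were past the ES threshold (6.92 to 15.4), against 7.98%. Both intervals of the 226 include the share of all promoters outside the set.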
